A study of Mus musculus with 18 samples.

Results

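Csf1, Csf2, Csf3 and Gdf15 encode secreted factors through which cancer cells can address myeloid cells and distant organs, and their transcripts were followed here in the mouse lung cancer lines EA1 and EA2. The genes were chosen by name, 4 of the 24269 genes that both deposited tables measure, and their in vivo and in vitro values in these libraries were known when they were chosen. Their levels and changes are therefore given as descriptions, without a test. EA1 and EA2 are lung tumor lines that carry an Eml4-Alk fusion. EA1 is described as p53 wild type and EA2 as p53 null. In vivo libraries (5 of EA1 and 5 of EA2) came from GFP-negative cells sorted by FACS from the left lungs of C57BL/6 males that carried GFP under the ubiquitin C promoter, aged 8 to 12 weeks. Each suspension pooled 3 to 5 mice, and tumors had grown for 4 weeks. In vitro libraries (5 of EA1 and 3 of EA2) came from the same lines passaged in parallel in RPMI-1640 with 10% fetal bovine serum. Only the in vivo cells went through enzymatic digestion of the lung, red cell lysis and sorting, while cultured cells were pelleted from the dish. Growth in the lung and this handling therefore cannot be told apart in any in vivo against in vitro change. Each line stands for a single tumor-derived line, and the gate selects cells by the absence of GFP, not by a marker of the cancer cells.

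Csf1 encodes macrophage colony-stimulating factor, which binds the receptor tyrosine kinase encoded by Csf1r and sustains monocytes and macrophages. Csf2 encodes GM-CSF, which acts through a receptor built from an alpha chain (Csf2ra) and the common beta chain (Csf2rb). In the lung GM-CSF is best known for keeping alveolar macrophages able to clear surfactant. Csf3 encodes G-CSF, the main factor for neutrophil production, which binds the receptor encoded by Csf3r. Gdf15 encodes a distant member of the TGF-beta family that is induced by cellular stress and by p53, circulates, and acts on appetite through GFRAL and RET in the hindbrain.

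Values are FPKM, that is fragments per kilobase of transcript scaled to the depth of the library, so levels of different genes can be set side by side. From the smallest steps between low values, a library held about 24700000 to 43400000 fragments. A gene was fitted with limma on log2(FPKM + 1) where it reached 1 FPKM in 5 or more libraries of EA1, or 3 or more of EA2, which left 11212 and 11074 genes. A positive log2 change means higher in vivo. At a Benjamini-Hochberg adjusted p of 0.05 the limma test called 71.5% of genes in EA1 (30.9% higher and 40.7% lower) and 57.3% in EA2 (32.9% higher and 24.4% lower). In EA1 43.1% of the calls were higher, and 54.5% with median-of-ratios scaling, under which the median over all tested genes was 0.05 in place of -0.09. In EA2 57.4% of the calls were higher, and 50.7% with the same scaling, under which the median was 0.02 in place of 0.18. The FPKM of EA2 in vitro libraries 1 and 3 leaned toward short transcripts, so EA2 counts of the gene lists are also given with in vitro library 2 alone. That setting leaves 1 culture and calls fewer genes over the whole table, so a call lost there need not reflect transcript length. Among the genes named below, the EA2 calls of Il3ra, Jak1, Jak2, Socs1, Nfkb1, Fos, Fosb, Etv4, Zfp36, Zmat3, Sesn1, Adam17, Pcsk7, Il33, Tlr2, Gstm5, P4ha2, Psmd3 and Ssbp4 were lost in that setting. Markers of other cell types were measured in the same libraries. The 10 fibroblast markers summed to 168.7 to 2883 FPKM in EA1 in vivo libraries against 4.24 to 6.98 FPKM in EA1 in vitro libraries, and to 346.6 to 810.5 FPKM in EA2 in vivo libraries against 0.60 to 21.4 FPKM in EA2 in vitro libraries. The 16 macrophage and monocyte markers summed to 166.6 to 379.5 FPKM in EA1 in vivo libraries against 72.9 to 83.4 FPKM in vitro, and to 39.5 to 157.9 FPKM in EA2 in vivo libraries against 49.8 to 71.8 FPKM in vitro. Ptprc, the pan-leukocyte phosphatase CD45, stayed below 1 FPKM in all 18 libraries (at most 0.712 FPKM in EA1 in vivo). The 5 leukocyte markers, Ptprc included, summed to 45.8 to 102 FPKM in EA1 in vivo against 4.44 to 9.61 FPKM in vitro. In EA2 that sum was 2.26 to 94.7 FPKM in vivo against 49.3 to 132.4 FPKM in vitro. Neutrophil markers summed to 14.9 to 57.75 FPKM in EA1 in vivo against 0.12 to 0.41 FPKM in vitro. Club cell markers had 245.5 to 939.5 against 0.41 to 0.96 FPKM. In EA2 these sums were 2.37 to 7.18 and 14.85 to 165.5 FPKM in vivo, against at most 1.40 and 0.02 FPKM in vitro. EA1 libraries expressed the epithelial genes Krt8 and Cdh1. Krt8 in EA2 ran from 0.583 to 69.7 FPKM in vivo and from 22.5 to 93.3 FPKM in vitro. Cdh1 in EA2 ran from 5.05 to 23.3 FPKM in vivo and from 5.54 to 7.48 FPKM in vitro. Epcam reached 2.04 FPKM at most in EA2 libraries and 2.27 FPKM at most in EA1 in vitro libraries. It ran from 35.5 to 150.4 FPKM in EA1 in vivo libraries. In such bulk samples fewer cells of a type and less RNA per cell cannot be told apart.

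Each of the 4 messages holds the pentamer ATTTA in its 3′ untranslated region, the core of AU-rich elements known to mark many cytokine messages for rapid decay. Message stability was not measured here. The windows below are the 30 bases of each 3′ untranslated region that hold the most ATTTA, read on the strand of the message from GRCm38 with GENCODE M21, with the pentamers in capitals and overlapping matches counted.
Csf2 chr11:54247329-54247358, minus strand: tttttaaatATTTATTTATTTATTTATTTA
Gdf15 chr8:70629482-70629511, minus strand: cttcaaggatgctATTTAtatttgtATTTA
Csf3 chr11:98702984-98703013, plus strand: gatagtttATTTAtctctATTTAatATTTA
Csf1 chr3:107741109-107741138, minus strand: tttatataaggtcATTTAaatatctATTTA
The Csf2 window holds 5 overlapping pentamers in an unbroken run, and the whole Csf2 region has 9 in 317 bases. Gdf15 has 5 in 150 bases, Csf3 has 6 in 669 bases and Csf1 has 4 in 2111 bases. Among 20829 genes with such a region, 0.0336% had at least the density of Gdf15, 0.0528% that of Csf2, 1.55% that of Csf3 and 37.9% that of Csf1. By number alone, whatever the length, 21.8% had at least as many as Gdf15, 8.65% as Csf2, 17.1% as Csf3 and 28.2% as Csf1. A match describes these letters and is not evidence that a protein binds there.

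Csf2 set the EA2 cultures apart. In EA2 in vivo libraries 1 to 5 Csf2 had 1.49, 1.29, 2.497, 2.76 and 0.966 FPKM, against 154.3, 113.8 and 85.5 FPKM in EA2 in vitro libraries 1 to 3. The groups did not overlap, and the lowest in vitro library stood 31.0 times above the highest in vivo library. The means were 1.80 ± 0.78 FPKM in vivo (SD, n = 5) and 118 ± 34.6 FPKM in vitro (SD, n = 3), a ratio of 65.4 in favor of the cultures. The log2 change was -5.41 (SE 0.27), and only 2 of the 11074 tested EA2 genes had a lower one. Csf2 ranked above 58.0% of all EA2 genes by mean level in vivo and above 96.1% in vitro. In approximate fragments, these values rest on 16.3 to 57.0 fragments per in vivo library and 1623 to 3495 per in vitro library. The Csf2 transcript is short (800 bases), and the change was -4.71 once each library's trend with transcript length was removed and -5.40 with in vitro library 2 alone.

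EA1 cells had little Csf2 in either setting. EA1 in vivo libraries 1 to 5 had 1.09, 1.64, 1.04, 0.732 and 3.15 FPKM of Csf2, against 0.555, 0.929, 2.14, 1.80 and 1.03 FPKM in EA1 in vitro libraries 1 to 5. The groups overlapped throughout, with in vivo library 5 the highest of the 10 and in vitro library 1 the lowest. The log2 change was 0.12 (SE 0.26), and it took the other sign with quantile normalization (-0.50), with the length trend removed (-0.49), without in vivo library 5 (-0.08) and without in vitro library 1 (-0.01). The Csf2 change in EA1 minus that in EA2 was 5.53 (SE 0.39) on the log2 scale. Over all genes 63.3% were called different between lines in this joint fit, and the differences of these 4 genes carry no test.

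**Figure D1:**
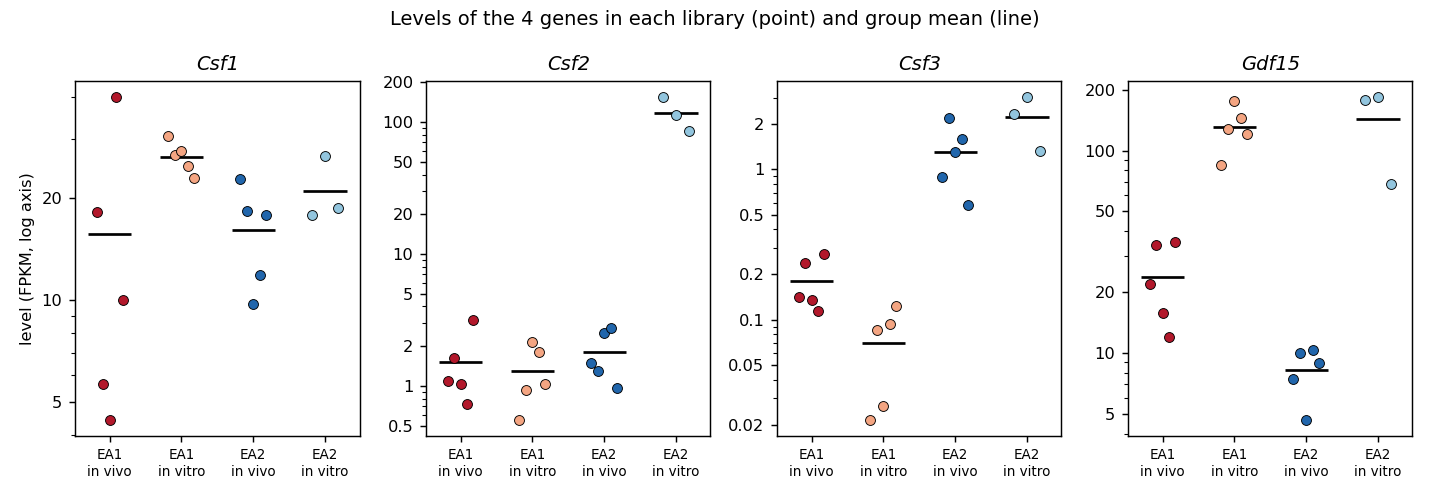
Levels of Csf1, Csf2, Csf3 and Gdf15 in FPKM on logarithmic axes that differ between panels, with 1 point for each of the 18 libraries and a line at each group mean. Csf2 in the 3 EA2 in vitro libraries (85.5 to 154.3 FPKM) lies far above its other libraries (at most 3.15 FPKM), and Gdf15 is lower in vivo in both lines without overlap.

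Gdf15 was lower in vivo in both lines. EA1 in vivo libraries 1 to 5 had 21.9, 34.1, 15.8, 12.03 and 35.5 FPKM of Gdf15, against 85.1, 127.8, 176.0, 144.2 and 120.2 FPKM in EA1 in vitro libraries 1 to 5. No in vivo library reached the lowest culture, in vitro library 1, which still stood 2.40 times above the highest in vivo library. The means were 23.9 ± 10.6 FPKM in vivo and 131 ± 33.3 FPKM in vitro (SD, n = 5 each), a ratio of 5.47 in favor of the cultures, and the log2 change was -2.48 (SE 0.29). In EA2 in vivo libraries 1 to 5 Gdf15 had 7.44, 10.1, 4.69, 10.3 and 8.97 FPKM, against 177.8, 183.4 and 68.5 FPKM in EA2 in vitro libraries 1 to 3. Again the groups did not overlap, with in vitro library 3 well below the other cultures and 6.65 times above the highest in vivo library. The EA2 means were 8.30 ± 2.31 FPKM in vivo (SD, n = 5) and 143 ± 64.8 FPKM in vitro (SD, n = 3), a ratio of 17.3, with a log2 change of -3.87 (SE 0.35). By change, 32 of 11212 tested EA1 genes and 15 of 11074 EA2 genes were lower than Gdf15. The Gdf15 change in EA1 minus that in EA2 was 1.39 (SE 0.48). Across the alternatives, libraries left out included, the change stayed between -2.83 and -2.27 in EA1 and between -4.35 and -3.55 in EA2.

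Without overlap between groups, Gdf15 was the only one of the 3 genes past the filter in EA1 that lay below the cultures, where 32.5% of all tested EA1 genes did so. In EA2, Csf2 and Gdf15 did so among 4 genes past the filter, where 22.8% of all tested EA2 genes did. None of the 4 genes lay above the cultures without overlap, against 25.3% of tested genes in EA1 and 28.1% in EA2. These shares describe the tables, since the genes were chosen with these values known.

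Csf1 overlapped between settings in both lines and varied widely among EA1 in vivo libraries. EA1 in vivo libraries 1 to 5 had 18.3, 5.66, 4.44, 39.9 and 10.0 FPKM of Csf1, against 30.5, 26.9, 27.6, 25 and 23.0 FPKM in EA1 in vitro libraries 1 to 5. In vivo library 4 was the highest of all 10, and the other 4 in vivo libraries lay below every culture. The highest EA1 in vivo library stood 8.98 times above the lowest, against 1.32 times among EA1 in vitro libraries. The means were 15.7 ± 14.6 FPKM in vivo and 26.6 ± 2.81 FPKM in vitro (SD, n = 5 each), and the log2 change was -1.13 (SE 0.46), or -1.55 (SE 0.30) without in vivo library 4. In EA2 in vivo libraries 1 to 5 Csf1 had 22.9, 18.4, 9.73, 11.9 and 17.8 FPKM, against 17.9, 26.7 and 18.7 FPKM in EA2 in vitro libraries 1 to 3. The EA2 groups overlapped, with means of 16.1 ± 5.31 FPKM in vivo (SD, n = 5) and 21.1 ± 4.85 FPKM in vitro (SD, n = 3). The EA2 log2 change was -0.40 (SE 0.28), and -0.75 with in vitro library 2 alone. The Csf1 change in EA1 minus that in EA2 was -0.72 (SE 0.60), little more than its error.

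The order of the EA1 in vivo libraries by Csf1 (4, 1, 5, 2, 3) was also their order by Col3a1, a fibrillar collagen of fibroblasts, which had 1001, 330.9, 303.4, 266.8 and 67.6 FPKM in that order. It was the reverse of their order by Cdh1, the epithelial cadherin, which had 62.4, 167.7, 173.1, 247.1 and 257.1 FPKM in the same libraries. Decorin (Dcn), another fibroblast transcript, had 464.3 FPKM in library 4 and 29.1 FPKM in library 3. Other markers broke the order. Col1a1, another fibrillar collagen, was higher in library 2 (240 FPKM) than in libraries 1 (228.2 FPKM) and 5 (119.8 FPKM), and Epcam was highest in library 2 (150.4 FPKM), not in library 3 (126.2 FPKM). In EA1 in vitro libraries Col3a1 stayed between 0.810 and 1.46 FPKM while Csf1 stayed above 23 FPKM. In EA2 in vivo libraries the fibroblast marker sum was lowest in library 1 (346.6 FPKM), where Csf1 was highest, and highest in library 4 (810.5 FPKM), where Csf1 was 11.9 FPKM. Most of that EA2 sum was Dcn (305.9 to 769.3 FPKM). The part of fibroblast RNA in the Csf1 level was not tested.

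**Figure D2:**
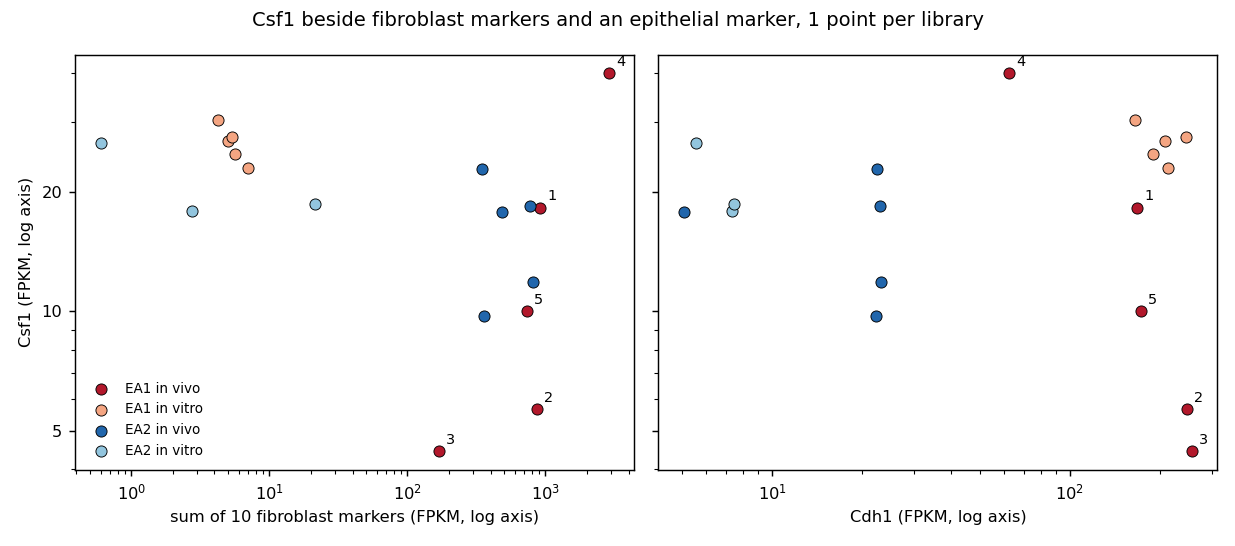
Csf1 (FPKM, vertical, logarithmic) against the sum of 10 fibroblast markers (left) and against Cdh1 (right), both in FPKM on logarithmic axes, with 1 point per library and EA1 in vivo libraries numbered. In EA1 in vivo libraries Csf1 ran from 4.44 FPKM in library 3 to 39.9 FPKM in library 4, which also had the lowest Cdh1 (62.4 FPKM) and the highest fibroblast sum (2883 FPKM).

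Csf3 was the scarcest of the 4. In EA1 in vivo libraries 1 to 5 Csf3 had 0.141, 0.237, 0.136, 0.115 and 0.275 FPKM, against 0.0216, 0.0850, 0.0266, 0.0937 and 0.124 FPKM in EA1 in vitro libraries 1 to 5. These values correspond to about 5.50 to 13.5 fragments per in vivo library and 1.12 to 6.01 fragments per in vitro library, so Csf3 did not pass the filter in EA1 and no change was fitted there. The ranges overlap only between in vivo library 4 and in vitro library 5. In EA2 in vivo libraries 1 to 5 Csf3 had 0.895, 2.18, 1.30, 1.59 and 0.577 FPKM, against 2.33, 3.02 and 1.32 FPKM in EA2 in vitro libraries 1 to 3. The EA2 groups overlapped and the log2 change was -0.49 (SE 0.28), within -0.84 to -0.10 across the alternatives.

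The make-up of the colony-stimulating factor transcripts differed between settings in EA2. The summed level of Csf1, Csf2 and Csf3 was 13.5 to 25.3 FPKM in EA2 in vivo libraries against 105.6 to 174.6 FPKM in EA2 in vitro libraries. Csf2 made up 4.99% to 18.5% of that sum in vivo against 79.3% to 88.4% in vitro, and Csf1 made up 71.9% to 92.03% in vivo against 10.3% to 18.6% in vitro. Csf1 was thus the leading factor in all 5 EA2 in vivo libraries and Csf2 in all 3 EA2 in vitro libraries. In EA1 Csf1 led in every library, with 74.6% to 97.9% of the sum in vivo against 92.7% to 98.1% in vitro. The EA1 sum was 5.62 to 40.7 FPKM in vivo against 24.2 to 31.1 FPKM in vitro.

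**Figure D3:**
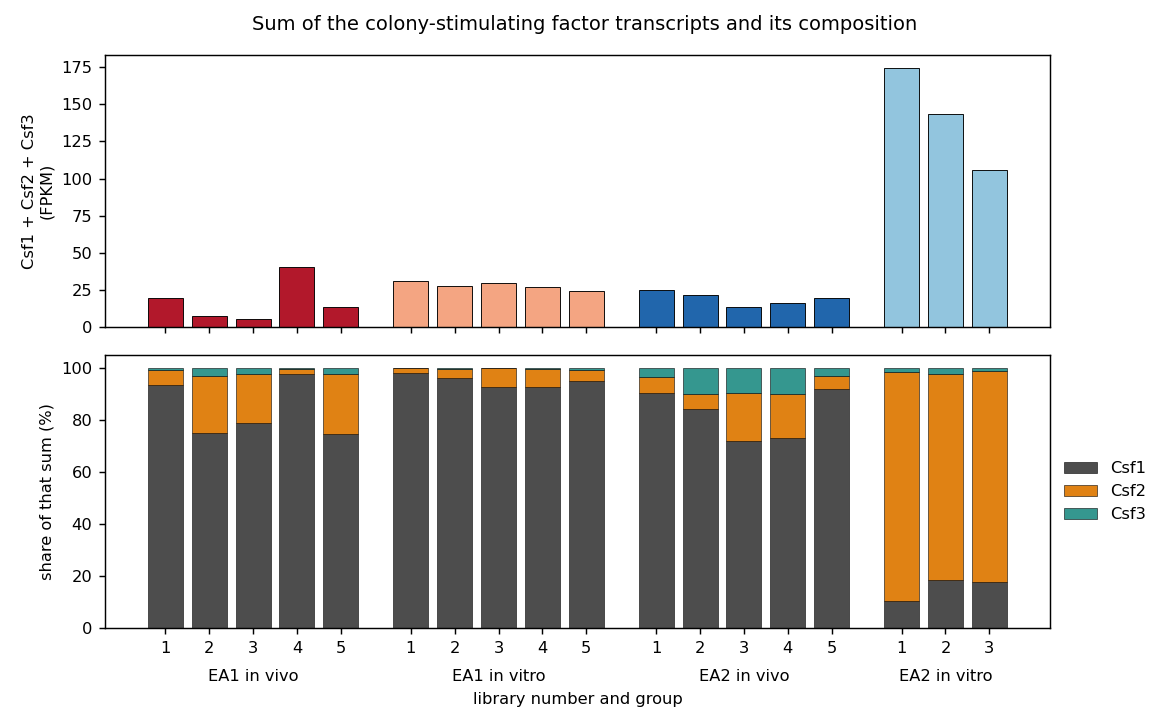
Summed FPKM of Csf1, Csf2 and Csf3 in each library (upper bars) and the share of each gene in that sum in percent (lower bars), with in vivo libraries left of in vitro libraries in each line. Csf2 makes up 79.3% to 88.4% in EA2 in vitro libraries and at most 23.4% in any other group.

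Of 12 receptor and partner genes, 7 stayed under 1 FPKM in every EA1 in vivo library and 7 in every EA1 in vitro library, and 8 and 9 did so in EA2 in vivo and EA2 in vitro libraries. Csf1r had 0.515 to 0.934 FPKM in EA1 in vivo libraries and was listed at the table's floor of 0.01 in all 5 EA1 in vitro libraries. In EA2 Csf1r had 0.121 to 0.902 FPKM in vivo against 0 to 0.0246 FPKM in vitro. Csf2rb, Csf2rb2 and Csf3r, the beta chains and the G-CSF receptor, had group means of at most 0.372 FPKM in vivo and were listed at 0.01 in EA1 and at 0 in EA2 in vitro libraries. Gfral, the receptor of GDF15, was at the floor in all 18 libraries, as was Il3 in EA1. The macrophage and monocyte marker sums given above, which include Csf1r, were also higher in vivo in EA1. So were the neutrophil marker sums, which include Csf3r. The part of such cells in the receptor levels was not tested.

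The receptor chains that did pass the filter moved separately. Csf2ra, the alpha chain for GM-CSF, had 2.88, 3.45, 3.59, 2.48 and 3.55 FPKM in EA1 in vivo libraries, against 1.504, 1.79, 2.35, 2.43 and 2.48 FPKM in EA1 in vitro libraries. It rose with a log2 change of 0.43 (SE 0.12, limma adjusted p = 0.00746), a call that was lost with quantile normalization (0.10) and with the length trend removed (0.26). In EA2 Csf2ra had means of 1.17 FPKM in vivo and 0.957 FPKM in vitro, with a change of 0.14 (SE 0.24, limma adjusted p = 0.631). Il3ra, the alpha chain of the IL-3 receptor, which shares the beta chain with GM-CSF, rose in both lines, by 1.38 in EA1 (SE 0.11, limma adjusted p = 8.19e-07) and by 0.91 in EA2 (SE 0.25, limma adjusted p = 0.0111). The EA2 call for Il3ra was lost without the filter (adjusted p = 0.0502), with quantile normalization (0.0598) and with in vitro library 2 alone (0.131). Il5ra, the alpha chain of the IL-5 receptor, fell to 11.2 to 33.4 FPKM in EA1 in vivo libraries, against 101.8 to 159.5 FPKM in EA1 in vitro libraries, a log2 change of -2.40 (SE 0.25, limma adjusted p = 8.58e-06), and was listed at 0 in all 8 EA2 libraries. Il34, the other ligand of the CSF1 receptor, had means of 4.53 and 4.45 FPKM in EA1 in vivo and in vitro libraries (change 0.04, SE 0.14) and of 13.3 and 19.0 FPKM in EA2 (change -0.53, SE 0.25, limma adjusted p = 0.0901). Ret, which signals with GFRAL, fell in EA1 to a mean of 1.39 FPKM in vivo, against 4.33 FPKM in vitro (log2 change -1.18, SE 0.14, limma adjusted p = 1.56e-05), and did not pass the filter in EA2.

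Of 12 kinases, STAT factors and feedback genes that act below these receptors, 6 rose and none fell in EA1, where 30.9% of all tested genes rose, with a median change of 0.42. In EA2 9 rose and 2 fell, where 32.9% of all tested genes rose, with a median of 1.12, but with in vitro library 2 alone 3 rose and 2 fell. Socs3, the feedback inhibitor of STAT3 signaling, rose by 3.22 in EA1 and 2.26 in EA2, and Stat3 rose by 1.38 and 1.96. Socs1, another feedback inhibitor, rose by 1.03 and 1.26, and Stat5a, the factor below the GM-CSF receptor, by 0.74 and 1.86. Jak2, the kinase of the common beta chain, rose by 1.23 in EA1 and 0.54 in EA2, where 12 alternatives lost the call. Jak1 rose by 1.504 in EA2 and had a change of 0.03 in EA1. The beta chains and the G-CSF receptor had group means of at most 0.372 FPKM in vivo, as given above. These kinases and factors also serve many other cytokine receptors. The part of the colony-stimulating factor receptors in these changes was not tested.

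Gdf15 is induced through ATF4 in the integrated stress response, in which kinases that sense stress slow translation while ATF4 protein accumulates. For comparison, 30.9% of all tested genes rose and 40.7% fell in EA1, and 32.9% and 24.4% in EA2. Of 14 tested genes of this response, 2 rose and 8 fell in EA1, with a median change of -0.99 against -0.09 over all tested genes, and 3 rose and 10 fell in EA2, with a median of -1.62 against 0.18 (1 and 9 with in vitro library 2 alone). Atf4 had 111.9, 122.9, 116.2, 119.6 and 121.9 FPKM in EA1 in vivo libraries, against 287.0, 519.0, 528.7, 551.7 and 502.9 FPKM in EA1 in vitro libraries, and fell by 1.97 on the log2 scale (SE 0.16, limma adjusted p = 1.02e-06). In EA2 Atf4 had 93.6 to 135.7 FPKM in vivo against 459.7 to 539.5 FPKM in vitro, and fell by 2.15 (SE 0.20, limma adjusted p = 3.67e-05). Its partner Ddit3, which encodes CHOP, fell by 1.90 in EA1, where in vitro library 1 (12.7 FPKM) lay within the in vivo range (8.78 to 13.7 FPKM), and by 2.18 in EA2. The targets Chac1, Trib3 and Asns fell by 3.99, 3.50 and 3.02 in EA1 and by 2.48, 2.53 and 2.06 in EA2. Atf3, an ATF4 target that can itself activate Gdf15, departed from this pattern in EA1, with 26.5 to 61.4 FPKM in vivo against 6.00 to 46.7 FPKM in vitro (change 0.86, SE 0.44, limma adjusted p = 0.105), although it passed without in vitro library 3 (1.14, limma adjusted p = 0.0342). In EA2 Atf3 fell by 2.21 (SE 0.41, limma adjusted p = 0.00124), and its change in EA1 minus that in EA2 was 3.06 (limma adjusted p = 0.000672).

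Within the cultures, the libraries lowest in Gdf15 were also low in most of these genes. EA1 in vitro library 1 had the lowest Gdf15 (85.1 FPKM), Atf4 (287.0 FPKM), Ddit3 (12.7 FPKM), Atf3 (6.00 FPKM), Trib3 (18.2 FPKM) and Csf2 (0.555 FPKM) of its group. EA1 in vitro library 3 had the highest Gdf15 (176.0 FPKM), Ddit3 (87.3 FPKM), Atf3 (46.7 FPKM), Trib3 (157.9 FPKM) and Csf2 (2.14 FPKM). Atf4 was instead highest in EA1 in vitro library 4, and Chac1 was lower in library 3 than in libraries 2, 4 and 5. EA2 in vitro library 3 had the lowest Gdf15 (68.5 FPKM), Csf2 (85.5 FPKM), Ddit3 (41.8 FPKM) and Trib3 (60.3 FPKM) of its group, while Chac1 was lowest in EA2 in vitro library 1. Over the 18 libraries, after the mean of each group was subtracted from log2(FPKM + 1), Gdf15 correlated with Csf2 at r = 0.61, with Atf3 at 0.58, with Zfp36, which encodes a decay factor, at 0.56, with Csf3 at 0.48, with Asns and Trib3 at 0.46 each, with Ddit3 at 0.45, with Atf4 at 0.41 and with Chac1 at 0.19. Csf1 did not share this, with r = -0.20 for Gdf15 and -0.39 for Csf2. These coefficients describe libraries that share depth and scaling within each table, and carry no test. Csf3 varied little among EA1 libraries on this scale, so its coefficient rests mostly on the EA2 libraries. The part of ATF4 in the Gdf15 levels was not tested.

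**Figure D4:**
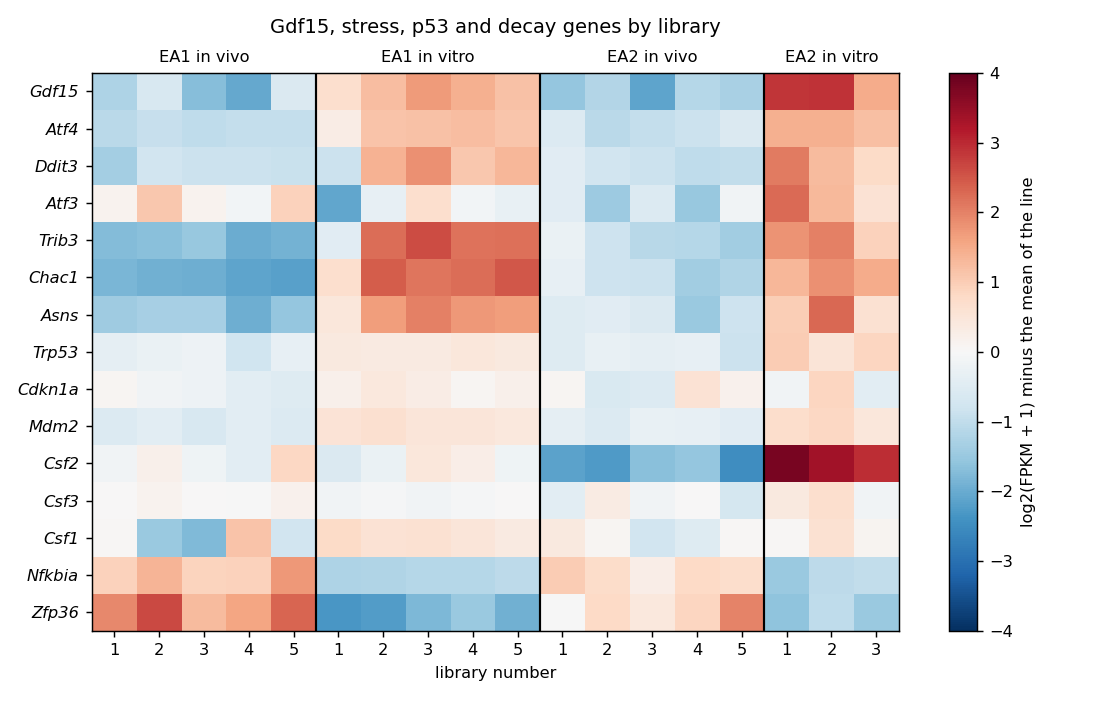
Color shows log2(FPKM + 1) of each gene minus the mean of its line, for the 18 libraries in columns, in vivo libraries left of in vitro libraries in each line. Gdf15, Atf4, Ddit3 and Trib3 are lower (blue) in vivo in both lines, EA1 in vitro library 1 lies below the other EA1 cultures in the rows from Gdf15 to Asns, and Zfp36 and Nfkbia run the other way.

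Gdf15 is also a target of p53. Trp53 transcript fell in both lines, to a mean of 75.7 FPKM in EA1 in vivo libraries, against 128.9 FPKM in vitro, and to 15.7 FPKM in EA2 in vivo libraries, against 39.3 FPKM in vitro (log2 changes -0.78 and -1.27, limma adjusted p = 4.33e-05 and 0.000567). Transcript was thus counted at this locus in EA2, the line described as p53 null. Of 12 tested genes, Trp53 and its targets, 3 rose and 7 fell in EA1 and 3 rose and 3 fell in EA2, or 1 and 2 with in vitro library 2 alone. Among all tested genes 30.9% rose and 40.7% fell in EA1, and 32.9% and 24.4% in EA2. Mdm2, the p53 antagonist, fell by 1.03 and 1.06, and Cdkn1a, the cell cycle inhibitor p21, fell by 0.48 in EA1 and had a change of -0.16 in EA2 (limma adjusted p = 0.704). Gtse1 and Bbc3 fell by 1.41 and 0.91 in EA1, with changes of 0.00 and -0.04 in EA2. Zmat3 fell by 0.42 in EA1 and rose by 0.99 in EA2, while Phlda3 rose by 0.30 and 1.09 and Sesn1 by 1.01 and 0.57. The EA1 change of Phlda3 took the other sign with the length trend removed (-0.08), and 11 alternatives lost the Sesn1 call in EA2. The part of p53 in the Gdf15 levels was not tested.

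Csf2 and Csf3 are classical targets of NF-kappaB, AP-1 and C/EBP factors, which IL-1, IL-17, TNF and Toll-like receptors switch on. Of 13 NF-kappaB factors and inhibitors tested in EA2, 6 rose and 2 fell (median 0.39), or 5 and 4 with in vitro library 2 alone, and in EA1 5 rose and 4 fell (median 0.07). By comparison, 30.9% of all tested genes rose and 40.7% fell in EA1, and 32.9% and 24.4% in EA2. The factor genes Rela, Nfkb1 and Nfkb2 rose by 1.57, 1.15 and 1.60 in EA2, with changes of 0.31, -0.26 and 0.12 in EA1, where the first was called higher and the second lower. Among the inhibitors, Nfkbia rose by 2.32 in EA1 and 1.88 in EA2 and Nfkbie by 1.45 and 1.59. Nfkbiz, which encodes an atypical family member, fell by 1.59 in EA2 and rose by 0.69 in EA1, a call that 7 alternatives lost. Rel and Chuk fell by 0.66 and 0.93 in EA1, with changes of 0.39 and -0.39 in EA2.

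Of 19 AP-1, C/EBP, NFAT, ETS and RUNX factors tested, 8 rose and 5 fell in EA1 (median 0.18), and 14 rose and none fell in EA2 (median 1.30), or 8 with in vitro library 2 alone. Beside this, 30.9% of all tested genes rose and 40.7% fell in EA1, and 32.9% and 24.4% in EA2. Fos and Fosb rose by 4.59 and 3.97 in EA1 and by 4.11 and 1.17 in EA2, although 5 alternatives lost the Fosb call in EA2. Only the in vivo cells were digested and sorted, and the part of that handling in the changes of these factors was not tested. Jun and Cebpd rose by 2.95 and 2.69 in EA1, with changes of 1.02 and 0.82 in EA2 that did not pass the threshold. Jund rose by 1.04 and 2.37. Nfatc1 and Nfatc3, calcium-driven factors with sites at Csf2, rose by 2.22 and 1.81 in EA2 and fell by 0.36 and 0.22 in EA1, where 12 alternatives lost the Nfatc1 call and 2 the Nfatc3 call. Fosl1 fell by 1.76 in EA1 and had a change of -0.18 in EA2. Etv5 fell by 0.80 in EA1 with a change of 0.56 in EA2, and Etv4 rose by 0.57 in EA2, a call that 8 alternatives lost, with a change of 0.16 in EA1.

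Of the receptors, adaptors and ligands that induce Csf2 and Csf3, 7 of 11 tested rose and 1 fell in EA1 and 7 of 13 rose and 2 fell in EA2, or 3 and 0 with in vitro library 2 alone. The list medians were 1.12 in EA1 and 0.66 in EA2, against -0.09 and 0.18 over all tested genes. Of all tested genes, 30.9% rose and 40.7% fell in EA1, and 32.9% and 24.4% in EA2. Tnfrsf1a and Tnfrsf1b, the TNF receptors, rose by 1.12 and 1.35 in EA1 and by 1.59 and 2.28 in EA2. Il17rc rose by 0.79 and 1.84, and Tlr2 by 1.06 in EA2. Tlr4 rose by 1.14 in EA1, with a change of 0.25 in EA2. Il33 rose by 3.63 in EA1 and fell by 2.12 in EA2, where 4 alternatives lost the call. Il1b had a mean of 3.11 FPKM in EA1 in vivo libraries, against 0.0133 FPKM in vitro, and of 0.537 FPKM in EA2 in vivo libraries, against a listed 0 in vitro. Lyz2, a myeloid lysozyme, ran from 69.1 to 153.9 FPKM in EA1 in vivo libraries against 0.0766 to 0.253 FPKM in vitro, and the part of host myeloid RNA in Il1b was not tested.

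Among 10 proteins known to bind AU-rich cytokine messages, Zfp36 and Zfp36l1, which recruit deadenylases to such messages and hasten their decay, rose in both lines. Zfp36 had 325.1, 535.9, 206.9, 259.7 and 437.6 FPKM in EA1 in vivo libraries, against 16.4, 17.5, 24.2, 30.3 and 22.2 FPKM in EA1 in vitro libraries, a log2 change of 3.89 (SE 0.25, limma adjusted p = 2.57e-07). In EA2 it had 15.8, 28.9, 22.1, 30.2 and 66.5 FPKM in vivo against 4.58, 7.51 and 5.12 FPKM in vitro, a change of 2.18 (SE 0.38, limma adjusted p = 0.000818), a call that was lost with in vitro library 2 alone. In neither line did the groups overlap. Zfp36l1 rose by 1.77 in EA1 and 2.82 in EA2. Over the list 2 of 9 tested genes rose and 5 fell in EA1 (median -0.33), and 6 of 10 rose and 1 fell in EA2 (median 1.09), or 4 and 1 with in vitro library 2 alone. Across all tested genes 30.9% rose and 40.7% fell in EA1, and 32.9% and 24.4% in EA2. Khsrp, another decay factor, fell by 0.69 in EA1 and rose by 1.38 in EA2, and Rc3h1, which encodes roquin, rose by 1.40 in EA2 with a change of -0.03 in EA1. Tia1, which represses translation of such messages, fell by 0.87 and 2.06. Beside these changes, Csf2 with its 9 pentamers was much lower in vivo in EA2 and near its culture level in EA1. Gdf15 with its 5 was lower in vivo in both lines. Csf3 with its 6 averaged 0.181 FPKM in EA1 in vivo libraries against 0.0702 FPKM in vitro. In EA2 Csf3 averaged 1.31 FPKM in vivo against 2.225 FPKM in vitro. Csf1 with its 4 overlapped between settings in both lines. The part of these proteins in the levels of the 4 genes was not tested.

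Of the proteases that process these ligands, Adam10, which like Adam17 sheds cell-surface proteins, rose by 0.28 in EA1 and 1.88 in EA2. Adam17, a sheddase of membrane-bound CSF1, rose by 1.29 in EA2 with a change of -0.07 in EA1. The proprotein convertases Furin and Pcsk7 rose by 1.52 and 0.75 in EA2, with changes of 0.00 and 0.02 in EA1, while Pcsk5 fell by 0.88 in EA1 and did not pass the filter in EA2. Where 30.9% of all tested genes rose and 40.7% fell in EA1, 32.9% and 24.4% did so in EA2. In all 1 of 6 tested genes rose and 1 fell in EA1, and 4 of 5 rose and none fell in EA2, or 2 with in vitro library 2 alone.

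**Figure D5:**
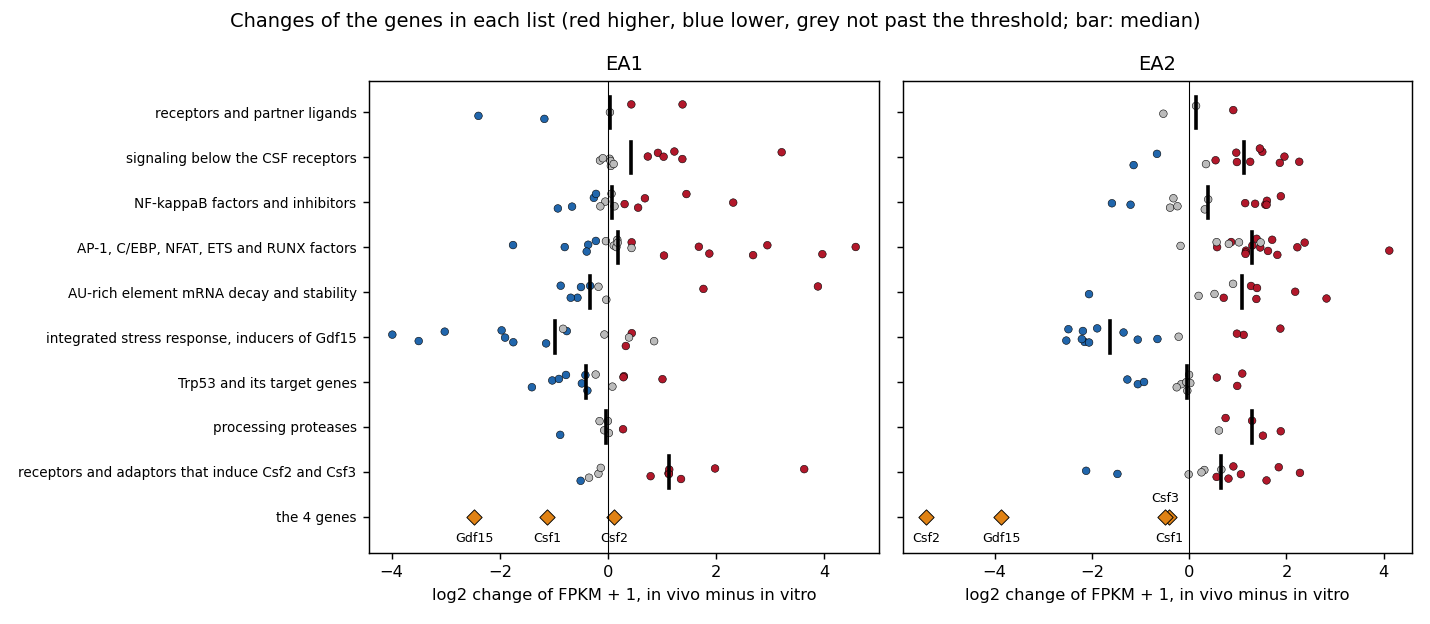
Log2 change of FPKM + 1 (in vivo minus in vitro, horizontal) for the tested genes of each list (rows), in EA1 (left) and EA2 (right), colored by the limma call, with a bar at each list's median. The diamonds in the bottom row are the described genes, which carry no test. The stress response row has the lowest medians of the lists (-0.99 in EA1 and -1.62 in EA2). Gdf15 had changes of -2.48 and -3.87, and the part of this response in them was not tested.

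The genes on either side of the 4 loci did not follow them as a block. Csf2 lies 15636 bases from Il3 on chromosome 11, and Il3, a cytokine gene of the same cluster, was at the floor in EA1 and averaged 0.0113 FPKM in EA2 in vivo libraries against 0.0165 FPKM in vitro. P4ha2 and Pdlim4, on the other side of Csf2, rose by 0.84 and 3.83 in EA2, and Acsl6 had a change of 0.63. Both P4ha2 and Pdlim4 also rose in EA1, by 0.95 to 1.19 and 3.21 to 3.48 as each library was left out. The neighbors Ssbp4 and Lsm4 of Gdf15 on chromosome 8 rose by 0.83 and fell by 0.33 in EA1, and rose by 1.06 and fell by 0.81 in EA2. Pgpep1 had changes of -0.07 and 0.16, and Lrrc25 had at most 0.143 FPKM on average. Beside Csf3, Psmd3 fell by 0.48 in EA1 and rose by 1.34 in EA2, Med24 had a change of -0.13 and rose by 2.03, Thra rose by 1.37 and 2.62, and Gsdma had at most 0.0102 FPKM on average. Beside Csf1 on chromosome 3, Ahcyl1 fell by 0.86 in EA1 with a change of -0.09 in EA2, Gstm5 rose by 0.49 and 0.66 (8 alternatives lost the EA2 call), and Eps8l3 rose by 3.61 in EA1.

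The genes with the most similar pattern were found by Pearson's r of log2(FPKM + 1) over the 18 libraries, after subtraction of each line's mean, among about 10333 genes past the filter in both lines. For Csf2 they were Sacm1l (r = 0.97), Rnf13 and Uqcc1 (0.96 each), Sirt7 and 2810002D19Rik (0.96 each). For Gdf15 they were Tmem74, Chordc1, Ppp2ca, Exosc1 and Arfrp1 (0.96 each). For Csf1 they were Dse (0.90), Ptpdc1 (0.89), Zfpm2 (0.87), Ctnnbip1 (0.86) and Cacnb2 (0.85), and for Csf3 Tor2a (0.88), Pcca (0.86), Gm6548 (0.81) and Scmh1 (0.81). For Csf1 and Csf3 these coefficients changed little when group means were subtracted (0.89 for Dse and 0.84 for Tor2a), whereas for Csf2 and Gdf15 they fell to 0.65 for Sacm1l and 0.50 for Tmem74. Csf3 did not pass the filter in EA1, where its values minus the line mean ran only from -0.14 to 0.18. In EA2 they ran from -0.69 to 0.66, so the Csf3 coefficients rest mostly on the EA2 libraries. The libraries share depth and scaling, and genes ranked by likeness over so few libraries are a description only.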

How the data were processed

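RNA was measured in 18 libraries of EA1 and EA2 cells, grouped by their labels. According to the methods, the authors made stranded polyA libraries, aligned reads to mm10 with STAR and estimated expression with Cufflinks (2.0.2 in the submitters' processing notes), and they deposited 1 table of FPKM per line. The sources used here do not give the annotation version. Values in EA1 stop at a floor of 0.01 while EA2 has exact zeros, so levels were not tested between lines. Genes with status words in place of values (6 in EA1) or dates as names (27 in EA2) were left out. Each column of values belonged to a labelled library.

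Values were analysed as log2(FPKM + 1) in R 4.3.3 by two-sided moderated tests of limma 3.58.1, with a mean-variance trend, after a filter of at least 1 FPKM in as many libraries as the smaller group has, with Benjamini-Hochberg adjustment over all genes of a line at 0.05. A joint fit of all libraries gave differences in the change between lines, with the same adjustment. Replicates are separate isolations, and in vivo libraries pool mice. The genes described and the lists of related genes were chosen with earlier results of these data known. Named are the 4 genes, every receptor gene, up to 4 genes per list and line with a call, no overlap and the largest changes, 12 further regulators whatever their values, the 5 most similar genes (1 is not reported here) and 2 neighbors on each side. Col1a1, Col3a1, Dcn, Cdh1, Krt8, Epcam, Ptprc and Lyz2 were named after their values were seen.

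Depth was estimated from the FPKM worth of 1 fragment in single-transcript genes of 1000 to 4000 bases, and fragments per gene from the longest coding transcript less 200 bases, so fragment numbers are approximate, and the estimate is least sure for EA2 in vivo library 5. Positions, lengths and sequences come from GENCODE M21 on GRCm38, and 96.7% of EA1 and 96.5% of EA2 tested genes had a length. Alternatives were median-of-ratios scaling, quantile normalization, a pseudocount of 0.1, a filter at 5 FPKM or none, removal of each library's length trend (loess span 0.3), robust empirical Bayes, a replicate block, each library left out, and EA2 in vitro library 2 alone. Array weights by line in the joint fit were added after seeing the data. In data simulated from these libraries, EA1 recovered 91 of 100 genes changed by 1 on the log2 scale and 99 of 100 changed by 2, with 6 false calls, and EA2 46 and 96 of 100, with 8 false calls. The joint fit recovered 178 of 200 with 48 false calls, or 169 with 30 under array weights. Few genes were changed in these simulations and noise was independent between genes, whereas most genes were called in the real tables. These rates therefore need not hold for the real tables. Figures were drawn with matplotlib 3.10.9.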

Additional observations from a re-analysis of the deposited data

Results flagged for a closer look

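None of the 12 groups of Csf1, Csf2, Csf3 and Gdf15 values with 4 or more libraries held a library far from the others. Among the related genes, 18 groups did, by Dixon's ratio of the gap to the range at the 95% level, of 218 groups checked in all, and chance alone flags about 1 in 20. In EA1 in vivo libraries the outlying values were Jak1 44.6 FPKM, Jund 126.9 FPKM, Ddit3 8.78 FPKM, Tlr4 12.1 FPKM, Pdlim4 19.4 FPKM, P4ha2 16.6 FPKM and Thra 48 FPKM. In EA1 in vitro libraries they were Atf4 287 FPKM, in library 1, which was also lowest in Gdf15, Khsrp 60.1 FPKM and Adam10 58.7 FPKM. In EA2 in vivo libraries they were Fos 361.1 FPKM, Jun 223.2 FPKM, Zfp36 66.5 FPKM, Furin 43.6 FPKM, Tlr4 11.1 FPKM, P4ha2 64.9 FPKM, Psmd3 79.9 FPKM and Ret 2.51 FPKM.

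The change in EA1 minus that in EA2 passed the joint limma test (adjusted p under 0.05) in 43 of 65 related genes, against 63.3% of all 11930 genes tested. It was positive, on the log2 scale, for Il33 (5.75), Atf3 (3.06), Fosb (2.80), Nfkbiz (2.27), Jun (1.93), Cebpd (1.87), Zfp36 (1.71), Tia1 (1.19), Socs3 (0.95), Tlr4 (0.88), Jak2 (0.69), Trp53 (0.50) and Lsm4 (0.48). Among factors and inhibitors it was negative for Nfatc1 (-2.59), Nfatc3 (-2.04), Fosl1 (-1.58), Nfkb2 (-1.48), Nfkb1 (-1.41), Etv5 (-1.36), Jund (-1.34), Rela (-1.26), Rel (-1.06) and Chuk (-0.53). Among signaling genes and receptors it was negative for Jak1 (-1.47), Stat5a (-1.12), Il17rc (-1.05) and Tnfrsf1b (-0.92). Among RNA-binding proteins it was negative for Khsrp (-2.07), Rc3h1 (-1.42) and Zfp36l1 (-1.06), and among proteases for Adam10 (-1.60), Furin (-1.52), Adam17 (-1.36) and Pcsk7 (-0.73). Among stress and p53 genes it was negative for Chac1 (-1.51), Gtse1 (-1.40), Zmat3 (-1.40), Bbc3 (-0.87) and Phlda3 (-0.80), and among neighbors for Med24 (-2.17), Psmd3 (-1.82), Thra (-1.25) and Ahcyl1 (-0.77).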

How the results depend on the processing

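Leaving out each library kept the log2 change of Csf1 within -1.55 to -0.83 in EA1 and -0.54 to -0.23 in EA2, of Csf2 within -0.08 to 0.24 and -5.62 to -5.20, of Gdf15 within -2.64 to -2.27 and -4.33 to -3.63, and of Csf3 in EA2 within -0.71 to -0.31. The Csf2 change in EA1 was -0.50 with quantile normalization and -0.49 with the length trend removed, against 0.12, and in EA2 it was -6.01 with a pseudocount of 0.1 and -4.71 with the length trend removed, against -5.41. Over all genes, 5289 rose in EA1 without the filter, against 3459. With EA2 in vitro library 2 alone, 1603 rose and 1667 fell in EA2, against 3643 and 2702, and the difference between lines was negative in 2517 genes, against 4327. That fit assumes that the lone culture varies like the other group. Leaving out a library gave 3266 to 3823 higher and 4295 to 4975 lower in EA1, 2547 to 4601 and 2225 to 2979 in EA2, and 2929 to 3541 positive and 3623 to 5009 negative differences. Higher calls were 57.4% of calls in EA2, but 49.4% with quantile normalization and 48.6% with the length trend removed, and positive differences were 42.7%, or 55.1% with median-of-ratios scaling. Of 2382 alternative fits of 137 tested gene and line pairs, 2258 kept direction and side of the threshold, 105 lost the call, 18 gained one and 1 took the other sign (Phlda3 in EA1, -0.079 with the length trend removed). The causes were not tested. Same-numbered in vivo and in vitro libraries did not deviate together (r of -0.0606 to 0.0767 in EA1 and -0.131 to 0.00662 in EA2), so the numbers were not taken as pairs. With a replicate block 3342 genes rose and 4445 fell in EA1, 3088 and 2137 in EA2. Csf3 in EA1 and the receptors near the floor are limited by depth, at about 1.12 to 13.5 fragments per library for Csf3.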
